A study of Mus musculus with 55 samples.

Results

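The genes described here are the complement and coagulation factors that the liver secretes, 41 genes among 24475 gene symbols that were counted, followed through 6 groups of mouse livers. They were listed by name as genes for secreted factors of the complement cascade, its lectin branch, blood coagulation and fibrinolysis. The list was chosen with earlier results of these data known. All 41 were in the table, all had reads in each of the 55 libraries (lowest count 364), and all passed the filter on low counts that left 13311 genes to test.

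Complement is a chain of plasma proteases and their substrates. Recognition molecules such as C1 and the mannose-binding lectins start it, C3 amplifies it, and C5 to C9 assemble into a pore in the target membrane, while inhibitors hold it back on host cells. Coagulation is a related cascade of proteases that ends in thrombin and fibrin, and plasmin later dissolves the clot. Hepatocytes make most of these proteins for the blood, so liver messenger RNA reports on their source.

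The study asked whether lowering liver enzymes that release ammonia helps mice with a urea cycle defect. The wild-type animals (WT) were B6EiC3SnF1/J hybrids. The mutant animals (OTC), strain B6EiC3Sn a/A-Otcspf-ash/J, have the spf-ash allele of Otc, an X-linked urea cycle gene for ornithine transcarbamylase. At 4 months of age the male mice were injected intravenously with an adeno-associated virus that carried a scrambled hairpin (control), a hairpin against Gls2 (sh-Gls2, the liver glutaminase) or a hairpin against Glud1 (sh-Glud1, glutamate dehydrogenase). All mice, controls included, received a virus and went from chow to a diet with 40% protein at week 2, and livers were taken at week 5, at an age of 5 months. The sources used here do not give the promoter of the vector or the liver cells that it reached. From WT mice there were 10 libraries with control, 10 with sh-Gls2 and 9 with sh-Glud1, and from OTC mice 8, 10 and 8 in that order. The stocks differ in background as well as in Otc, and these cannot be told apart in any comparison of OTC with WT.

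Total counts per library lay between 14489866 and 22781052, and the 41 genes together took 3.07% to 6.01% of them (median 3.74%). Otc was lower in OTC control than in WT control by a log2 fold change of −3.09 ± 0.09 (SE), and both hairpins lowered their target in both strains (log2 fold changes from −1.42 to −1.11), with no overlap between the ranges of the libraries. Under sh-Gls2 the Otc level in OTC mice also rose, by 0.27 ± 0.08 (adjusted p = 0.00874) in edgeR's test. Hepatocyte marker genes such as Alb summed to 84129 to 145045 CPM (read counts scaled to the effective library size) over all 55 libraries, so the defining markers of the labelled tissue were present. Within the groups some libraries stood apart. WT control mouse 13 was the lowest of its group for C6, C8a, C8b, C9 and C1ra, WT control mouse 07 was the highest for the fibrinogen genes, and OTC control mice 03 and 67 had the lowest C8a. For 1 OTC control library the mouse number in the table matched no title; it is called the OTC control of unmatched number. Results of the 41 genes that rest on these libraries are given with and without them.

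By TPM (a level scaled to depth and gene length), the 3 fibrinogen chains had the highest levels, with median TPM over all libraries of 3449 for Fgb, 3372 for Fga and 2607 for Fgg. Next came Kng1, a precursor of bradykinin, at 2304 TPM and C3, the hub of complement, at 2280.2 TPM, and these 5 genes overlapped one another in their ranges over the libraries. The lowest medians were those of Pros1 (32.6 TPM), F11 (43.8 TPM) and Masp1 (54.4 TPM), whose ranges also overlapped. As a ratio of the highest to the lowest library, the range of C8a was the widest, from 10.2 to 549 TPM.

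OTC livers had less messenger RNA for the pore-forming end of complement than WT livers under the control vector. The 6 terminal pathway genes among the 41, which do not include C7, were all lower, and C8a, C9, C8b and C6 were lower by more than 2-fold. F11, a protease of the contact system, and C4bp and Serping1, 2 inhibitors of complement, were lower in every OTC control library than in any WT control library. Mbl2, Kng2, Kng1, F10 and Serpinc1 were higher. In edgeR's quasi-likelihood test, 21 of the 41 genes were lower and 5 higher, 15 did not pass the test, and the median log2 fold change was −0.19, beside 0.02 over all genes. Of all 13311 genes, 16.4% were called lower and 19.9% higher. By role, 6 of 6 terminal pathway genes, 3 of 3 fibrinolysis genes, 3 of 5 inhibitors, 2 of 3 fibrinogen genes, 3 of 7 recognition genes and 2 of 5 contact system genes were lower. In bulk tissue fewer cells of a type and less RNA per cell cannot be told apart.

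C8a, C8b and C9 encode subunits of the pore, and C8a and C8b are neighbours on chromosome 4 (104815679 to 104876398 and 104766317 to 104804548, GRCm38), with 11130 bases between them. C9 lies on chromosome 15, 6445327 to 6498751. Their RefSeq promoters (GRCm38.p6, the 250 bases before the start, 5′ to 3′ in the gene's direction) are shown because these genes moved together between the strains. C8a is at chr4:104876399-104876648 on the minus strand, C8b at chr4:104766067-104766316 and C9 at chr15:6445096-6445345, both on the plus strand. Capitals mark matches to the letters of 3 liver motifs, GTTAAT for HNF1, TTGCNNAA for C/EBP and TTCNNNGAA for STAT, on either strand. The match in C8a nearest the start and the match in C8b are for HNF1, the other match in C8a is for STAT, and the match in C9 is for C/EBP.
C8a: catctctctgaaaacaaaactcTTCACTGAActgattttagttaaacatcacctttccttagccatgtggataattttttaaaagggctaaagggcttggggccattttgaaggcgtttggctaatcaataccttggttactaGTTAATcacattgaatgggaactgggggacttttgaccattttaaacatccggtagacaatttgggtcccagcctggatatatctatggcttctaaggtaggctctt
C8b: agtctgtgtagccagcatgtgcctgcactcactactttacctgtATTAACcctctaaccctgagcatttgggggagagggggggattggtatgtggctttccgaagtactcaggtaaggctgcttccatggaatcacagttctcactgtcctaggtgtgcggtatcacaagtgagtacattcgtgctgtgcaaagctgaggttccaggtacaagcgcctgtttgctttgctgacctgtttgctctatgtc
C9: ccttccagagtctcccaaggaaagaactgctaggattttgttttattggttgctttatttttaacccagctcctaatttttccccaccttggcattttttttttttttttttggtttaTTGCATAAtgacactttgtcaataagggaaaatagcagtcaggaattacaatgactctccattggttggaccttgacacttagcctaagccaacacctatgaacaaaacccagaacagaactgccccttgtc

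Such letters are a description and no evidence of binding. Of the 41 genes, 32 had an entry in the RefSeq promoter table, and 10 of these 32 (31.2%) held the HNF1 letters, beside 6.52% of all 27025 promoters of that length. For C/EBP the count was 8 of 32 (25%, beside 9.55%), for STAT 6 of 32 (18.8%, beside 7.18%), and for CAAAGTNCA, the letters of HNF4, 1 of 32 (3.1%, beside 1.21%). Fga and Fgb held the HNF1, C/EBP and STAT letters together. C2, C4b, Cfb, Cfi, Masp1, Plg, Serping1, Proc and Kng1 had no entry.

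C8a, the alpha chain of C8, ranged from 332 to 1170 CPM (median 807) in WT control and from 23.3 to 444 CPM (median 198) in OTC control. The only overlap came from WT control mouse 13, at 332 CPM, and 4 of the 8 OTC control libraries lay at or below 149.6 CPM. The log2 fold change was −1.90 ± 0.39 (SE; edgeR adjusted p = 0.000129). C9, which lines the pore, ranged from 333 to 959 CPM (median 645) in WT control and from 61.2 to 379.7 CPM (median 175) in OTC control, with a log2 fold change of −1.62 ± 0.26 (SE; edgeR adjusted p = 2.4e-06). Here too WT control mouse 13, at 333 CPM, was the lowest WT library and fell inside the OTC range. C8b, the beta chain of C8, ranged from 92.2 to 391 CPM (median 267) in WT control and 59.1 to 158 CPM (median 109.5) in OTC control, and its log2 fold change was −1.23 ± 0.22 (SE; edgeR adjusted p = 1.49e-05). Without WT control mouse 13 the WT control libraries of C8a, C8b and C9 would all lie above the OTC control libraries. C6, which joins the complex before C8, ranged from 54.7 to 332 CPM (median 226) in WT control and 29.4 to 189 CPM (median 107) in OTC control, and its groups overlapped more widely. The log2 fold change of C6 was −1.03 ± 0.36 (SE; edgeR adjusted p = 0.0218). Smaller differences were found for Hc, the gene of C5, at −0.36 ± 0.09 (adjusted p = 0.00204), and for C8g, the gamma chain of C8, at −0.24 ± 0.09 (adjusted p = 0.026).

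Without OTC control mice 03 and 67 the log2 fold change was −1.53 (adjusted p = 0.000662) for C8a, −1.35 (adjusted p = 3.98e-05) for C9 and −1.13 (adjusted p = 0.000308) for C8b, and all 3 stayed called. C6 was no longer called, at −0.85 (adjusted p = 0.0979), nor was C8g, at −0.13 (adjusted p = 0.211). C8g was likewise not called when WT control mouse 02 alone or OTC control mouse 03 alone was dropped. C6 also lost its call without OTC control mouse 67 alone or without the OTC control of unmatched number (−0.90, adjusted p = 0.0515). Without WT control mouse 13 the values were −1.99 (adjusted p = 8.42e-05) for C8a and −1.15 (adjusted p = 0.00951) for C6.

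**Figure D1:**
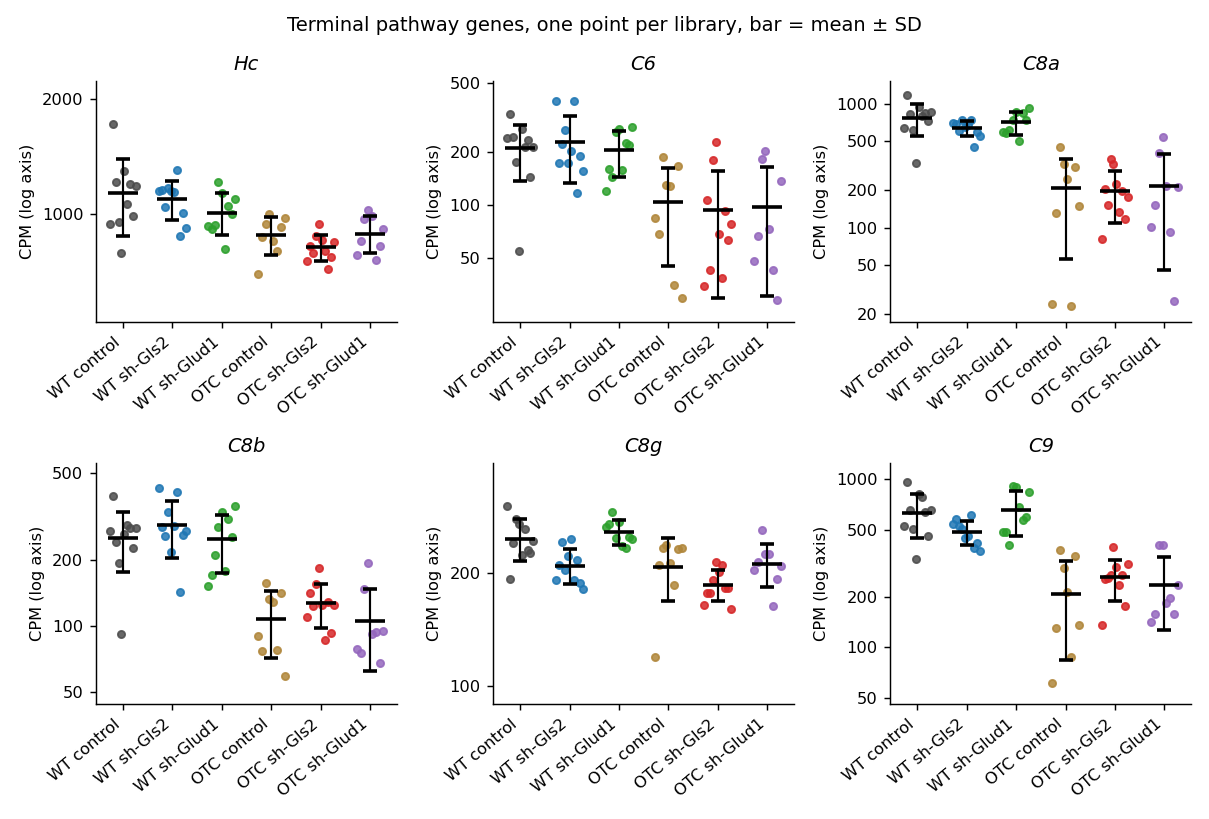
Normalised read counts in CPM (log axis) of the 6 listed terminal pathway genes in each library of the 6 groups, with the mean and SD. The C8a points of OTC control reach from 23.3 to 444 CPM and those of WT control from 332 to 1170 CPM, where the lowest point is mouse 13.

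The spread within OTC control was wide for these genes, with a coefficient of variation of 72.8% for C8a against 28.7% in WT control. Cux2, a transcription factor of hepatocytes that is female-biased in mouse liver, differed among the same libraries. Cux2 was at 99.1 CPM in OTC control mouse 03, 72 in mouse 67, 19.3 in mouse 35 and 13.1 in the OTC control of unmatched number, and at 0.261 to 2.47 CPM in the other 4. In the same order C8a was at 24, 23.3, 132 and 149.6 CPM, and at 246 to 444 CPM in the other 4. In the 29 WT libraries Cux2 lay between 0.135 and 1.46 CPM, and its highest value was that of WT control mouse 13. The part of this difference in the levels of complement genes was not tested.

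Among the inhibitors of complement, C4bp (C4b-binding protein, which speeds the decay of the classical convertase) ranged from 370.5 to 522 CPM (median 444) in WT control and from 115 to 294 CPM (median 242) in OTC control. No library overlapped, and the log2 fold change was −0.98 ± 0.11 (SE; edgeR adjusted p = 3.06e-09). Serping1, the inhibitor of C1, of the lectin proteases and of kallikrein, ranged from 642 to 803 CPM (median 737) in WT control and from 347 to 588 CPM (median 482) in OTC control. Again every OTC library was below every WT library, with a log2 fold change of −0.64 ± 0.09 (SE; edgeR adjusted p = 1.1e-07). Cfi, the protease that cleaves C3b and C4b, had a log2 fold change of −0.21 ± 0.06 (adjusted p = 0.00538), with overlapping ranges. Vtn, which blocks the pore, at −0.15 ± 0.06 (adjusted p = 0.058), and Cpn1, a carboxypeptidase that trims anaphylatoxins, at −0.02 ± 0.09 (adjusted p = 0.883), did not pass the test.

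The 2 mannose-binding lectins went opposite ways. Mbl1 ranged from 111 to 135 CPM (median 121) in WT control and from 25.3 to 103 CPM (median 83.8) in OTC control, with every OTC library below every WT library (log2 fold change −0.66 ± 0.13, edgeR adjusted p = 4.7e-05). OTC control mouse 03, at 25.3 CPM, was far below the next library at 58.2 CPM, and without mice 03 and 67 the log2 fold change was −0.47 (adjusted p = 5.33e-05). Mbl2 ranged from 190.3 to 456 CPM (median 294) in WT control and from 376 to 906 CPM (median 488) in OTC control, with a log2 fold change of 0.93 ± 0.14 (SE; edgeR adjusted p = 1.28e-06). OTC control mice 35 and 46, at 906 and 829.7 CPM, were highest, and the ranges overlapped through WT control mouse 13 at 456 CPM. Masp2, the protease that acts with these lectins, was lower, with a log2 fold change of −0.13 ± 0.05 (adjusted p = 0.0374) and C2, which joins C4b in the convertase, at −0.29 ± 0.10 (adjusted p = 0.0158). The call of Masp2 was lost without WT control mouse 02, or OTC control mice 35 or 38, or the OTC control of unmatched number. C2 lost its call when OTC control mouse 03 was dropped, alone or together with mouse 67 (−0.18, adjusted p = 0.147). Masp1, C1ra and C4b, and C3 and Cfb of the amplification loop, did not pass the test. C1ra shares near-identical sequence with C1rb and C4b with C4a, so the values of both are uncertain.

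F11, which activates factor IX, had the smallest adjusted p of the 41 genes. F11 ranged from 64.7 to 127 CPM (median 98.2) in WT control and from 25.8 to 43.6 CPM (median 37.5) in OTC control, with no overlap and a log2 fold change of −1.43 ± 0.13 (SE; edgeR adjusted p = 1.69e-11). Klkb1, plasma prekallikrein and the neighbour of F11 on chromosome 8 (4657 bases apart), ranged from 149 to 262 CPM (median 217) and 99.9 to 199.7 CPM (median 154) in the same groups, with overlap and a log2 fold change of −0.47 ± 0.10 (SE; edgeR adjusted p = 0.000218). The kininogen genes were higher. Kng2 ranged from 185 to 314 CPM (median 250.1) in WT control and 262 to 580.3 CPM (median 365) in OTC control, with overlap, and its log2 fold change was 0.63 ± 0.11 (SE; edgeR adjusted p = 6.36e-06). For Kng1 it was 0.34 ± 0.09 (adjusted p = 0.00302), and because the kininogen genes are near-identical copies the split between them is uncertain. F12, which starts the contact system, was at −0.10 ± 0.11 (adjusted p = 0.517) and did not pass the test.

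The promoters of F11 (chr8:45262032-45262281, minus strand) and C4bp (chr1:130661619-130661868, minus strand) are shown as those of the 2 genes with the smallest adjusted p, and that of Cpb2 (chr14:75242037-75242286, plus strand) as that of a gene that differed between strains and rose under sh-Gls2. F11 held C/EBP letters and C4bp held HNF1 letters, and Cpb2 held none of those searched.
F11: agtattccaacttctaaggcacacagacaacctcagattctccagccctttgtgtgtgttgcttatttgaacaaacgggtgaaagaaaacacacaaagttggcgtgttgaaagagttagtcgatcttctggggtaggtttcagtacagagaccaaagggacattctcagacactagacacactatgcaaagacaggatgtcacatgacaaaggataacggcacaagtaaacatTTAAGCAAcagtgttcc
C4bp: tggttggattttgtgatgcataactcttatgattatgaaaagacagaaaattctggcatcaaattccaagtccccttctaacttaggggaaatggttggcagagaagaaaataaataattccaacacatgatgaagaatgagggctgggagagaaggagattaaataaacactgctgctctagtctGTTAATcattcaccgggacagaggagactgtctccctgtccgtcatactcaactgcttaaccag
Cpb2: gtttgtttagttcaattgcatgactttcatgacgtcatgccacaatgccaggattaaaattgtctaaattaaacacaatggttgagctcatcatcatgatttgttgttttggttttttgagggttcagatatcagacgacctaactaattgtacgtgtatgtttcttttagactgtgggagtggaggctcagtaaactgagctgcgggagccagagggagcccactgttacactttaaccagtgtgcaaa

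Cpb2 encodes a carboxypeptidase that protects fibrin from plasmin. It ranged from 265 to 393 CPM (median 289.5) in WT control and from 185 to 262 CPM (median 208) in OTC control, with every OTC library below every WT library. The log2 fold change was −0.45 ± 0.06 (SE; edgeR adjusted p = 2.01e-07). The other 2 genes of fibrinolysis were lower too, Serpinf2, the inhibitor of plasmin, at −0.25 ± 0.07 (adjusted p = 0.00422) and Plg, plasminogen itself, at −0.16 ± 0.06 (adjusted p = 0.0402). Their ranges overlapped, and Plg lost its call without WT control mice 02, 28 or 41, or OTC control mice 35, 46 or 72. Of the whole list, C4bp, Cpb2, F11, Mbl1 and Serping1 lay below WT control in every OTC control library, and none lay above, beside 1.91% of all genes below and 1.5% above.

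The fibrinogen calls rested on 1 library. Fga, the alpha chain, ranged from 4015 to 12890 CPM (median 4710) in WT control and 2707 to 5011 CPM (median 4261) in OTC control, where WT control mouse 07 stood at 12889.8 CPM and the next WT library at 5576 CPM. The log2 fold change was −0.44 ± 0.15 (SE; edgeR adjusted p = 0.0158), and −0.22 (adjusted p = 0.111) without that mouse. Fgg, the gamma chain, behaved likewise (−0.43 ± 0.14, adjusted p = 0.016, and −0.22, adjusted p = 0.101, without it), and Fgb, the beta chain, did not pass the test (−0.26 ± 0.13, adjusted p = 0.123). In the same library Saa1, an acute phase gene, reached 904 CPM, while the 9 remaining WT control libraries spanned 26.7 to 359 CPM, and Hp, haptoglobin, stood at 3824 CPM where those 9 lay between 1428 and 2221 CPM. Both genes were looked up after the fibrinogen values were seen, and their part in them was not tested.

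Among the vitamin K-dependent factors, F10 ranged from 326 to 438 CPM (median 394) in WT control and from 427 to 510.5 CPM (median 455) in OTC control. The groups overlapped narrowly, and the log2 fold change was 0.25 ± 0.06 (SE; edgeR adjusted p = 0.000378). F9, the factor missing in haemophilia B, was lower, with a log2 fold change of −0.19 ± 0.07 (adjusted p = 0.0407), and that call was lost without WT control mice 07 or 19, or OTC control mice 35, 38, 46 or 72. F2 (prothrombin), F7 (which starts coagulation with tissue factor), Proc and Pros1 (the anticoagulant proteins C and S) did not pass the test, with log2 fold changes from −0.14 to 0.09. Serpinc1, antithrombin, was higher by 0.19 ± 0.06 (adjusted p = 0.00897), and Serpind1, heparin cofactor II, was at −0.03 ± 0.05 (adjusted p = 0.73). F13b, the carrier of the fibrin cross-linking enzyme, was lower, with a log2 fold change of −0.25 ± 0.08 (adjusted p = 0.00798), and F5, the cofactor of factor Xa, was at −0.12 ± 0.07 (adjusted p = 0.175).

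Of the 26 calls, 13 held under every alternative and without any single library, namely F11, C4bp, Serping1, Cpb2, Mbl2, C9, Kng2, C8b, Mbl1, C8a, Klkb1, F10 and Hc. On the deposited TPM, where the median of all genes moved from 0.02 to 0.10, the split was 9 higher and 12 lower, with C3, Cfb, F2 and F7 added to the higher genes. On that scale, log2(TPM + 1), limma called 34.3% of all 11310 genes higher and 9.98% lower.

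The strains were also compared under each hairpin, so that the 3 strain comparisons share no library. Under sh-Gls2, 24 genes were lower in OTC and 1 higher, beside 14.9% and 14.5% of all genes, and under sh-Glud1 17 were lower and 6 higher, beside 15.1% and 19.9%. Lower in all 3 comparisons were 14 genes (14 of 21, of 24 and of 17), namely C6, C8a, C8b, C9, Masp2, Mbl1, C4bp, F11, F13b, Plg, Serpinf2, Serping1, Klkb1 and Cpb2. Kng2 was higher in all 3. No gene was called in opposite directions, and 38 of 41 had the same sign throughout. The shares of all genes with such shared calls or signs were not counted, so these counts have no background beside them. F11 was at −1.61 ± 0.12 (adjusted p = 3.56e-14) under sh-Gls2 and −1.27 ± 0.13 (adjusted p = 3.23e-10) under sh-Glud1, and C8a at −1.70 ± 0.36 (adjusted p = 0.000302) and −1.70 ± 0.39 (adjusted p = 0.000609). The C8a libraries ranged from 448 to 737 CPM (median 665) in WT sh-Gls2 and 80.4 to 355 CPM (median 187) in OTC sh-Gls2, with no overlap. In WT sh-Glud1 they ranged from 501 to 924 CPM (median 734) and in OTC sh-Glud1 from 25.5 to 539 CPM (median 183), with overlap through OTC mouse 44. Mbl2 was higher in OTC under sh-Glud1 (0.87 ± 0.15, adjusted p = 7.35e-06) and did not pass the test under sh-Gls2 (0.23 ± 0.13, adjusted p = 0.183), and the difference between these vectors was not tested.

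**Figure D2:**
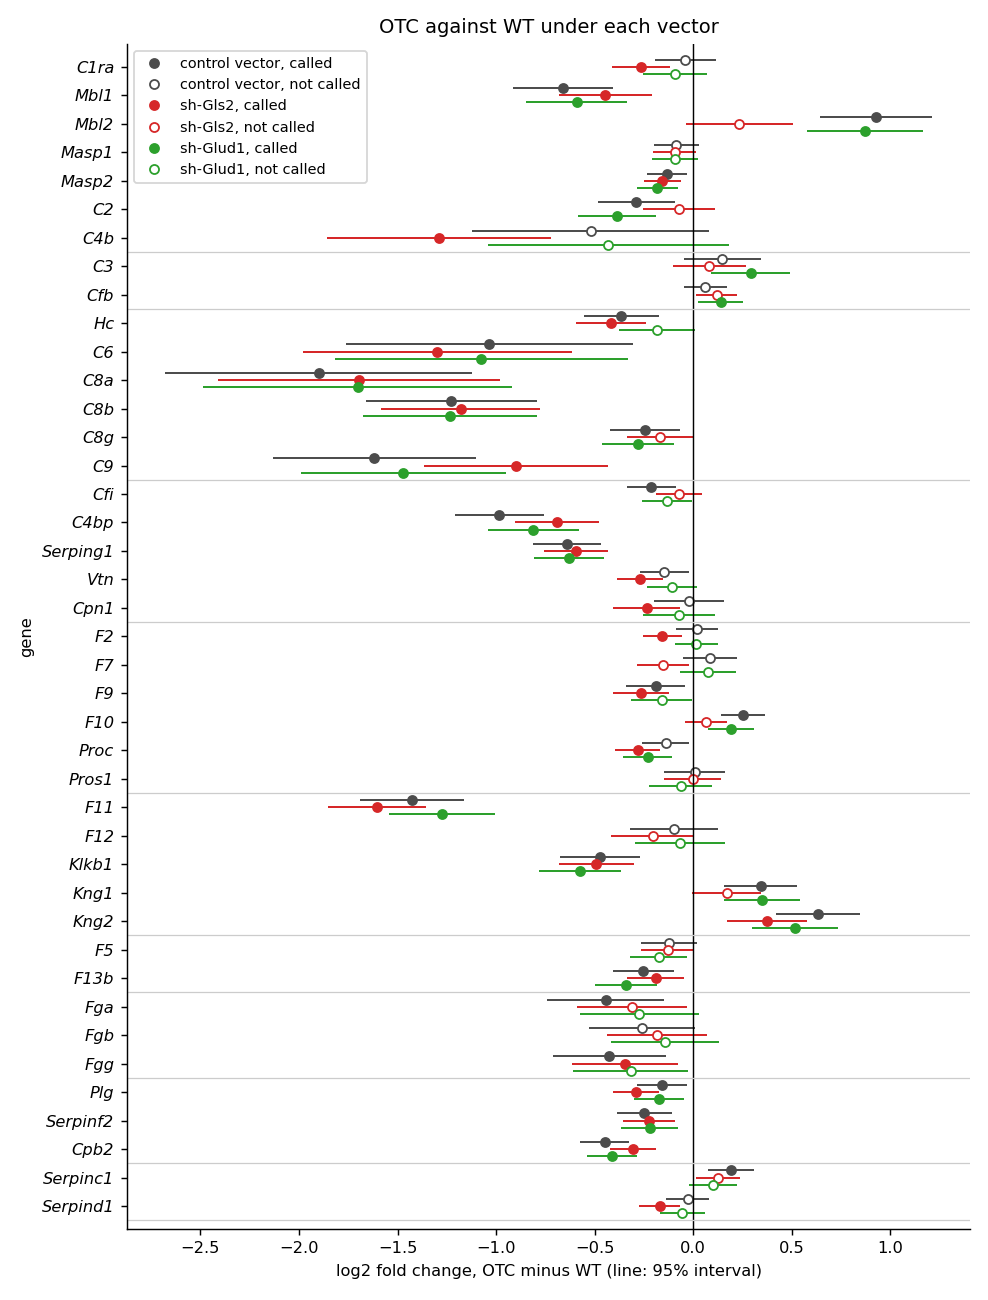
Log2 fold change of OTC against WT under the control vector, sh-Gls2 and sh-Glud1 for the 41 genes, ordered by role, with 95% intervals and filled points for calls at an adjusted p below 0.05. The C8a, C9, C8b, C6 and F11 points are called to the left under all 3 vectors and Kng2 to the right, while C4b is called under sh-Gls2 only, at −1.29.

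C4b, the cofactor of C2, was at −1.29 ± 0.28 (adjusted p = 0.00051) in OTC under sh-Gls2 and at −0.52 ± 0.30 (adjusted p = 0.17) under the control vector, and edgeR's test of the difference between the strains in the sh-Gls2 effect gave −0.77 ± 0.41 (adjusted p = 0.476). Its level fell into separate clusters in WT livers. In WT control it was at 959 and 957 CPM in mice 19 and 10 and at 307 to 447 CPM in the other 8. In WT sh-Gls2, 5 libraries lay between 764 and 978 CPM and 5 between 284 and 318 CPM. In WT sh-Glud1, 3 lay between 761 and 927 CPM and 6 between 300.3 and 421 CPM. No library in OTC sh-Gls2 exceeded 324 CPM. F12 showed single high libraries, with WT control mice 02 and 11 at 305 and 255 CPM, whereas the 8 remaining libraries spanned 141 to 186 CPM.

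**Figure D3:**
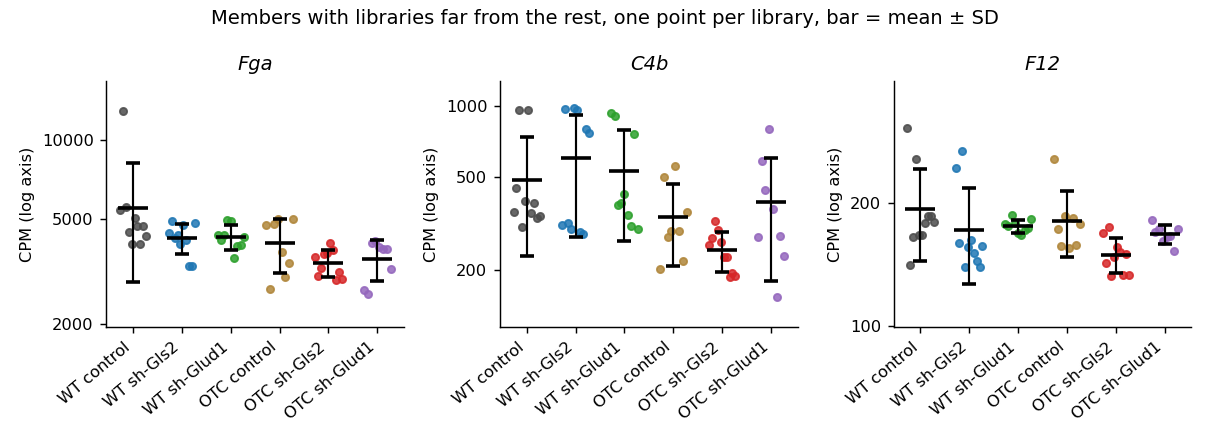
Read counts in CPM (log axis) of Fga, C4b and F12 in each library, with the mean and SD per group. A single WT control point stands near 12889.8 CPM for Fga, C4b splits into a high and a low set in the 3 WT groups, and F12 has 2 high points in WT control.

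Under sh-Gls2 these genes moved both ways. Each target had a single hairpin, so effects of the lower Gls2 level and other effects of that vector cannot be told apart. In both strains C2, Cfi, Cpb2, F13b and Pros1 rose and C3, Masp1, Masp2, F11, Serpind1, Klkb1 and Vtn fell. Of the genes called in both strains, C2 rose most, 1.40-fold in WT and 1.63-fold in OTC, and F11 fell most. The pore genes C6, C8a, C8b and C9 did not pass the test in either strain. In WT 7 of 41 genes rose and 11 fell, beside 17.6% and 17.2% of all genes, with a median log2 fold change of −0.06. In OTC 7 rose and 15 fell, beside 20.2% and 22.6%, with a median of −0.16. In the upward direction the shares in both strains were near those of all genes. The 5 shared rises are 5 of 7 in each strain, and the 7 shared falls are 7 of 11 in WT and 7 of 15 in OTC, in comparisons without a shared control. No gene was called in opposite directions, and 33 of 41 had the same sign. For all genes the shared rises, falls and signs were not counted.

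C2, the protease of the classical and lectin convertase, ranged from 74.8 to 105 CPM (median 94.6) in WT control and from 83.8 to 149 CPM (median 135) in WT sh-Gls2. Mouse 45 was the only sh-Gls2 library inside the control range, and the log2 fold change was 0.49 ± 0.09 (SE; edgeR adjusted p = 2.58e-05). In OTC, C2 ranged from 53.2 to 97.6 CPM (median 77.3) under control and from 104 to 145 CPM (median 125) under sh-Gls2, with no overlap and a log2 fold change of 0.70 ± 0.10 (SE; edgeR adjusted p = 6.71e-08). Cfi ranged from 539.9 to 646 CPM (median 589.6) in WT control and from 638 to 784 CPM (median 715) in WT sh-Gls2, with slight overlap (log2 fold change 0.28 ± 0.06, adjusted p = 0.000139). In OTC the ranges of Cfi were 429.9 to 602 CPM (median 488) and 619 to 766 CPM (median 683) and did not overlap (log2 fold change 0.42 ± 0.06, adjusted p = 2.85e-07).

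Cpb2 had the smallest adjusted p in OTC. It ranged from 185 to 262 CPM (median 208) under control and from 268 to 346 CPM (median 298) under sh-Gls2, with no overlap and a log2 fold change of 0.47 ± 0.06 (SE; edgeR adjusted p = 3.26e-08). In WT the sh-Gls2 range was 334 to 389 CPM (median 372), and WT control mouse 07, at 393 CPM, was the only control library not below it. The log2 fold change in WT was 0.32 ± 0.06 (SE; edgeR adjusted p = 1.72e-05), and 0.37 (adjusted p = 1.65e-07) without that mouse. Pros1, the cofactor of activated protein C, rose, with a log2 fold change of 0.38 ± 0.07 (adjusted p = 4.57e-05) in WT and 0.37 ± 0.08 (adjusted p = 0.00013) in OTC. Its OTC control range of 51.8 to 87.9 CPM overlapped the sh-Gls2 range of 68.7 to 91.1 CPM. F13b rose, with a log2 fold change of 0.30 ± 0.07 (adjusted p = 0.000922) in WT and 0.36 ± 0.08 (adjusted p = 0.000142) in OTC, with overlap in both.

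C4bp rose in OTC. It ranged from 115 to 294 CPM (median 242) under control and from 256 to 376 CPM (median 334) under sh-Gls2, with a log2 fold change of 0.52 ± 0.11 (SE; edgeR adjusted p = 0.000194), and its ranges overlapped. All but 1 of the 10 OTC sh-Gls2 libraries were still below the lowest WT control library, at 370.5 CPM. In WT it was at 0.22 ± 0.10 (adjusted p = 0.0905) and did not pass the test, and the difference between the strains was 0.29 ± 0.15 (adjusted p = 0.473). The comparison of OTC sh-Gls2 with OTC control shares the OTC control libraries with the strain comparison, so the values are only set side by side: C2 was at −0.29 between the strains and 0.70 under sh-Gls2, Cpb2 at −0.45 and 0.47, and C4bp at −0.98 and 0.52 (log2 fold changes). Other genes did otherwise, since F11, Klkb1, Masp2 and Plg were called lower in OTC control and lower again under sh-Gls2 in OTC. Mbl2 rose in WT, where it ranged from 190.3 to 456 CPM (median 294) under control and from 315 to 519 CPM (median 404) under sh-Gls2, with overlap and a log2 fold change of 0.50 ± 0.13 (SE; edgeR adjusted p = 0.00278). C1ra rose in WT, with a log2 fold change of 0.25 ± 0.07 (adjusted p = 0.00653), where WT sh-Gls2 mouse 45, at 208 CPM, was far below the next library at 309.6 CPM. Cfb, the protease of the alternative convertase, rose in OTC, with a log2 fold change of 0.18 ± 0.06 (adjusted p = 0.00686) and lost that call when OTC mice 03 and 67 were dropped (0.13, adjusted p = 0.0649).

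Masp1, the first protease of the lectin pathway, had the smallest adjusted p in WT. It ranged from 84.9 to 110.3 CPM (median 97.5) under control and from 67.8 to 85.5 CPM (median 77.5) under sh-Gls2, with 1 sh-Gls2 library just inside the control range (log2 fold change −0.33 ± 0.05, edgeR adjusted p = 2.06e-06). In OTC it ranged from 78.9 to 103 CPM (median 92.7) and 64.8 to 83.4 CPM (median 71.1), with slight overlap (log2 fold change −0.34 ± 0.06, edgeR adjusted p = 2.58e-06). Masp2 fell, with a log2 fold change of −0.23 ± 0.05 (adjusted p = 0.000185) in WT, where every sh-Gls2 library was below every control library, and −0.25 ± 0.05 (adjusted p = 7.23e-05) in OTC. On log2(TPM + 1) neither fall of Masp2 passed limma's test, at −0.10 (adjusted p = 0.0838) in WT and −0.01 (adjusted p = 0.841) in OTC. C3 fell, with a log2 fold change of −0.26 ± 0.09 (adjusted p = 0.0209) in WT and −0.33 ± 0.10 (adjusted p = 0.005) in OTC. The WT call of C3 was lost without WT control mouse 41, and the OTC call when OTC mice 03 and 67 and WT mouse 13, all of the control groups, were dropped at once (−0.25, adjusted p = 0.0506).

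Vtn ranged from 1427 to 1842 CPM (median 1653) in OTC control and from 1177 to 1417 CPM (median 1321) in OTC sh-Gls2, with no overlap and a log2 fold change of −0.31 ± 0.06 (SE; edgeR adjusted p = 4.54e-05). In WT it fell, with a log2 fold change of −0.19 ± 0.06 (adjusted p = 0.00925) with overlap. Of the whole list, Masp2 in WT was the only gene below control in every sh-Gls2 library and none was above, beside 1.88% of all genes below and 2.88% above. In OTC, C2, Cfi and Cpb2 were above control in every library and Vtn below, beside 3.59% and 3.15%.

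Thrombin and its inhibitors fell together in OTC. F2 ranged from 1295 to 1538 CPM (median 1392) in OTC control and from 1091 to 1336 CPM (median 1157) in OTC sh-Gls2, with narrow overlap and a log2 fold change of −0.27 ± 0.05 (SE; edgeR adjusted p = 3.4e-05). Serpind1 ranged from 548 to 667 CPM (median 618) and 426 to 555 CPM (median 473) in the same groups, overlapping only near their ends (log2 fold change −0.34 ± 0.05, edgeR adjusted p = 2.06e-06). In WT, Serpind1 fell, with a log2 fold change of −0.19 ± 0.05 (adjusted p = 0.00266), and F2 was at −0.09 ± 0.05 (adjusted p = 0.134) and did not pass the test. For F2 the difference between the strains was −0.18 ± 0.07 (adjusted p = 0.327). Serpinc1 fell in OTC, with a log2 fold change of −0.15 ± 0.06 (adjusted p = 0.0352) and lost the call without OTC control mice 43 or 72, or the OTC control of unmatched number, or OTC sh-Gls2 mice 24, 31, 39, 60, 73 or 74. Also lower in OTC were F10 (−0.20 ± 0.06, adjusted p = 0.00342), F7 (−0.20 ± 0.07, adjusted p = 0.0149), Plg (−0.25 ± 0.06, adjusted p = 0.000966) and Cpn1 (−0.33 ± 0.09, adjusted p = 0.00209). F7 lost its call when OTC mice 03 and 67 were left out of the control group (−0.16, adjusted p = 0.0925).

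Of the 5 contact system genes 2 fell in WT and 4 in OTC. In WT, F11 ranged from 64.7 to 127 CPM (median 98.2) under control and from 57.2 to 97.2 CPM (median 74.1) under sh-Gls2, with overlap and a log2 fold change of −0.36 ± 0.12 (SE; edgeR adjusted p = 0.0162). In OTC it ranged from 25.8 to 43.6 CPM (median 37.5) under control and from 19.9 to 31 CPM (median 23.8) under sh-Gls2, with overlap and a log2 fold change of −0.54 ± 0.13 (SE; edgeR adjusted p = 0.00061). OTC sh-Gls2 had the lowest median F11 level of the 6 groups. Klkb1 fell, with a log2 fold change of −0.26 ± 0.09 (adjusted p = 0.0296) in WT and −0.27 ± 0.10 (adjusted p = 0.0237) in OTC. It lost the WT call without WT control mice 28, 41 or 77 and the OTC call without OTC control mice 38, 43 or 72. In OTC F12 fell, with a log2 fold change of −0.28 ± 0.11 (adjusted p = 0.0396) and Kng2 at −0.27 ± 0.11 (adjusted p = 0.0331), and with OTC mice 03 and 67 dropped they were at −0.17 (adjusted p = 0.249) and −0.15 (adjusted p = 0.26). Left out singly, 9 libraries ended the call of F12 (OTC control mice 03, 43 or 67, or the OTC control of unmatched number, or OTC sh-Gls2 mice 21, 31, 39, 60 or 74) and 7 that of Kng2 (OTC control mice 03 or 35, or the OTC control of unmatched number, or OTC sh-Gls2 mice 31, 39, 60 or 74). The 3 fibrinogen genes were called lower in WT, with Fga at −0.38 ± 0.14 (adjusted p = 0.0283), Fgb at −0.32 ± 0.13 (adjusted p = 0.0403) and Fgg at −0.39 ± 0.13 (adjusted p = 0.0201). Without WT control mouse 07 none was called, with Fga at −0.15 (adjusted p = 0.25), Fgb at −0.14 (adjusted p = 0.275) and Fgg at −0.18 (adjusted p = 0.161). Fga also lost its call without WT sh-Gls2 mouse 45 or 78, and Fgb without WT control mice 07 or 10, or WT sh-Gls2 mice 01, 30, 36, 45 or 78. C8g fell in WT, with a log2 fold change of −0.24 ± 0.08 (adjusted p = 0.0228) and lost the call without WT control mouse 02.

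**Figure D4:**
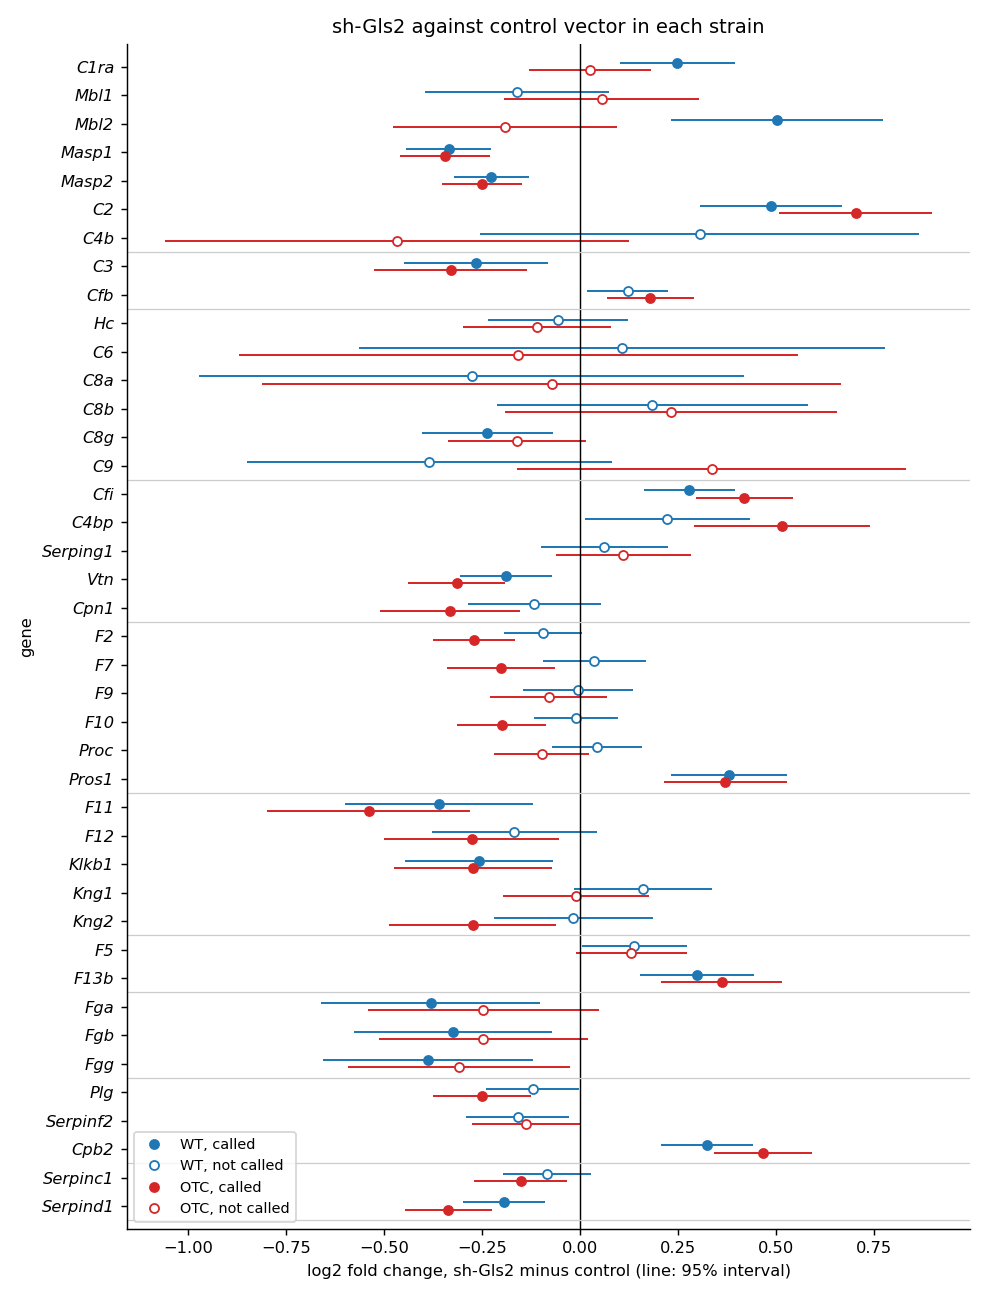
Log2 fold change of sh-Gls2 against the control vector in WT and OTC for the 41 genes, ordered by role, with 95% intervals and filled points for calls. C2, Cfi, Cpb2, Pros1 and F13b lie to the right in both strains, Masp1, Masp2, Serpind1 and F11 to the left, and the intervals of C6, C8a, C8b and C9 span 0.

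**Figure D5:**
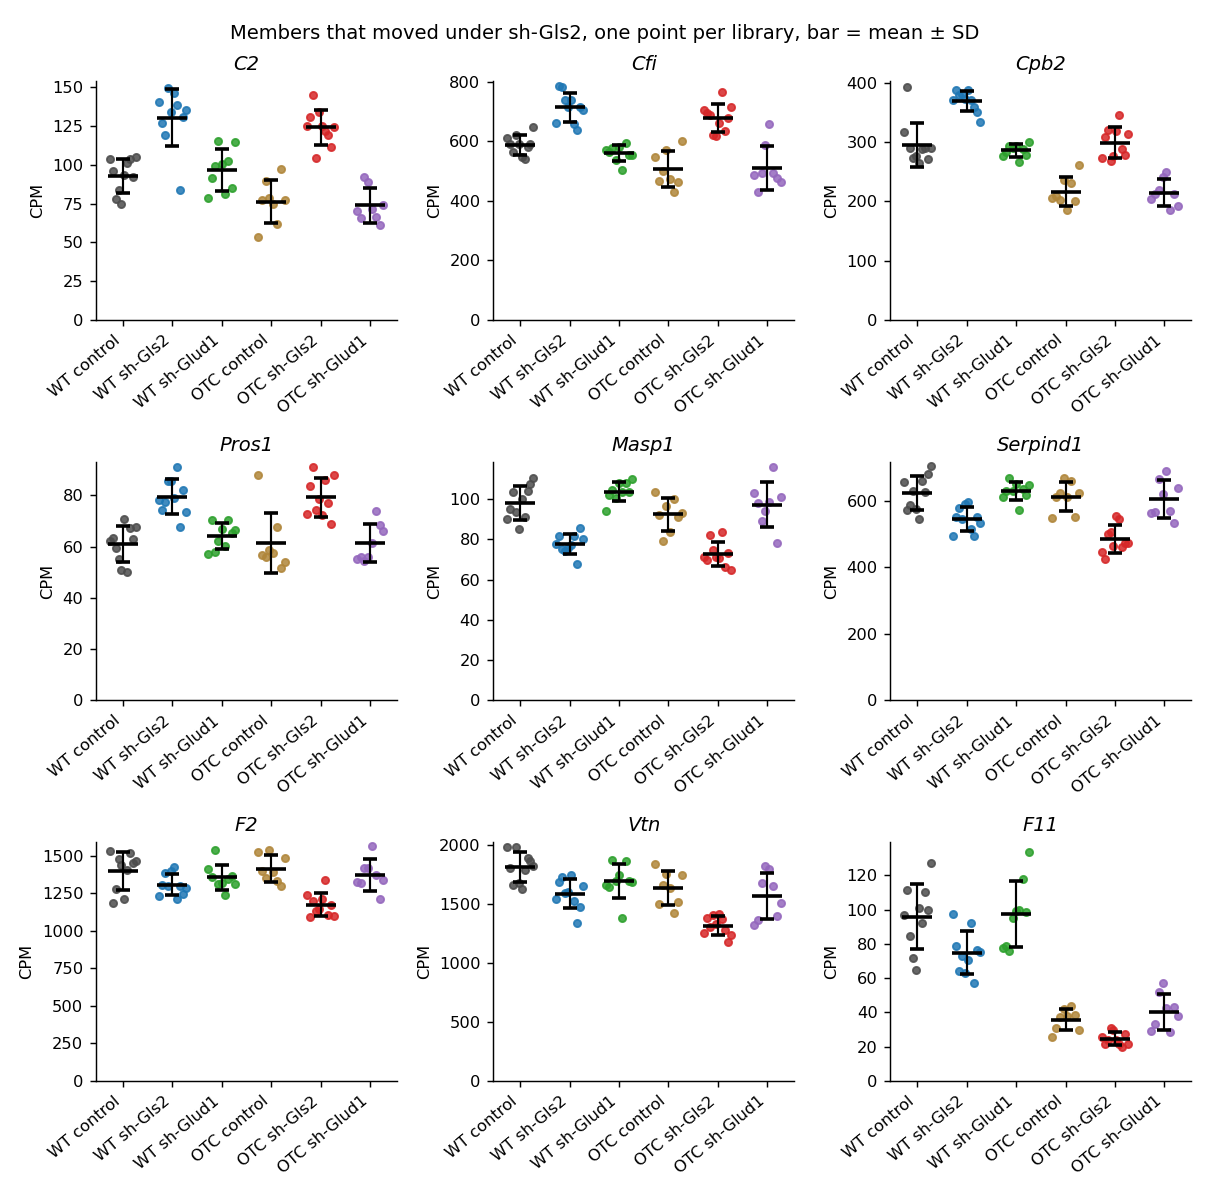
Read counts in CPM of 9 genes called under sh-Gls2 in at least 1 strain, by library, with the mean and SD of each group. OTC sh-Gls2 libraries of C2, at 104 to 145 CPM, sit above all OTC control libraries, and F11 is lowest in OTC sh-Gls2.

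Of the calls under sh-Gls2, 11 of 18 in WT and 13 of 22 in OTC held under every alternative and without any single library. In WT these were Masp1, Cpb2, C2, Pros1, Cfi, F13b, Serpind1, Mbl2, C1ra, Vtn and F11. Those kept in OTC were Cpb2, C2, Cfi, Serpind1, Masp1, F2, Vtn, Pros1, F13b, C4bp, F11, Plg and Cpn1, so the OTC call of F10 was not among them. On both TPM scales 6 genes fell in WT and 9 in OTC. On log2(TPM + 1), 15.9% of all 11310 genes tested by limma fell in WT and 18.3% in OTC. The counts in both strains were near these shares of all genes.

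None of the 41 genes was called for a difference between the strains in the sh-Gls2 effect, beside 0.338% of all genes. At an unadjusted p below 0.05 there were 6, Mbl2, F7, F2, F10, C9 and C1ra. The smallest adjusted p was that of Mbl2, whose sh-Gls2 effect was 0.50 in WT and −0.19 in OTC, a difference of −0.69 ± 0.20 (SE; edgeR adjusted p = 0.107) with a 95% interval from −1.08 to −0.30. Without WT control mouse 13, which had the highest Mbl2 of its group, the difference was −0.78 (adjusted p = 0.0478) and passed the test. DESeq2 called none. For C9 the difference was 0.72 ± 0.34 (SE; edgeR adjusted p = 0.417), and the effects of F11 differed by −0.18 ± 0.18 (adjusted p = 0.756).

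Under sh-Glud1 none of the 41 genes passed the test. In WT 3 of the 13311 genes were called (0.0225%) and in OTC 2 (0.015%), Glud1 among them in both. In WT 4 of the 41 genes had an unadjusted p below 0.05 in edgeR, Fga, Fgg, Fgb and C3, and the smallest adjusted p was 0.896, for Fga at a log2 fold change of −0.37 ± 0.14. Without WT control mouse 07 it was −0.14 (adjusted p = 0.998), and none of the 41 had an unadjusted p below 0.05. In OTC none had an unadjusted p below 0.05, and the smallest adjusted p was 0.988. DESeq2 called none of the 41 in either strain. Intervals were narrow for C2, from −0.13 to 0.24 for WT livers and −0.25 to 0.16 for OTC livers. They were wide for C8a, from −0.84 to 0.59 for WT livers and −0.71 to 0.85 for OTC livers. No difference between strains in the sh-Glud1 effect was called among the 41 or among all genes (0%), and none of the 41 had an unadjusted p below 0.05.

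Set directly against sh-Glud1, sh-Gls2 livers had 9 of the 41 genes higher and 6 lower in WT (15.5% and 14.2% of all genes) and 8 higher and 10 lower in OTC (19.5% and 21.1%). The count of lower genes in WT and both counts in OTC were near the shares of all genes. These comparisons share the sh-Gls2 libraries with those against control. C2 was higher by 0.43 ± 0.09 (adjusted p = 0.000267) in WT and 0.75 ± 0.10 (adjusted p = 1.83e-08) in OTC. Masp1 was lower, with a log2 fold change of −0.42 ± 0.06 (adjusted p = 3.35e-08) in WT and −0.42 ± 0.06 (adjusted p = 5.41e-08) in OTC.

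Other genes of the same pathways were read from a list of 55, of which 47 were tested. In OTC control 8 were higher and 10 lower than in WT control, with sh-Gls2 17 rose and 10 fell in WT, and 21 rose and 9 fell in OTC, and with sh-Glud1 none was called in either strain. Of all genes 19.9% were higher and 16.4% lower in OTC control. With sh-Gls2 17.6% of all genes rose and 17.2% fell in WT, and 20.2% rose and 22.6% fell in OTC. The counts of higher and lower genes between the strains, and the falls with sh-Gls2 in both strains, were near those shares. Mcfd2, which carries factors V and VIII out of the endoplasmic reticulum, was lower in OTC control, at −0.38 ± 0.07 (adjusted p = 2.27e-05). Ggcx, the carboxylase that makes vitamin K-dependent factors functional, was lower in OTC control, at −0.65 ± 0.11 (adjusted p = 1.08e-05) and fell under sh-Gls2, at −1.01 ± 0.11 (adjusted p = 4.06e-11) in WT and −0.96 ± 0.11 (adjusted p = 8.91e-10) in OTC. Among the 6 vitamin K-dependent genes of the main list, Pros1 rose under sh-Gls2 in both strains. F2, F7 and F10 fell in OTC, and none of the 6 fell in WT. A link between Ggcx and these messenger RNA levels was not tested. Vkorc1, which recycles vitamin K, fell in OTC, with a log2 fold change of −0.50 ± 0.06 (adjusted p = 5.69e-10). C1s1, the partner of C1r in C1, fell under sh-Gls2, at −0.56 ± 0.07 (adjusted p = 7.25e-09) in WT and −0.57 ± 0.07 (adjusted p = 1.72e-08) in OTC, and the related C1rl at −0.32 ± 0.05 (adjusted p = 1.9e-06) and −0.58 ± 0.05 (adjusted p = 1.72e-12). C3ar1, the receptor of C3a, rose in WT, with a log2 fold change of 1.18 ± 0.16 (adjusted p = 7.02e-08).

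Of 27 transcription factors of hepatocytes, 3 were higher and 8 lower in OTC control, and with sh-Gls2 none rose and 6 fell in WT, and 1 rose and 7 fell in OTC. The falls under sh-Gls2 were near the shares of all genes, 17.2% in WT and 22.6% in OTC. Of all genes 19.9% were higher and 16.4% lower in OTC control, and with sh-Gls2 17.6% rose in WT and 20.2% in OTC. Hnf4a was higher in OTC control by 0.42 ± 0.08 (adjusted p = 0.000117) and Cux2 by 6.09 ± 0.97 (adjusted p = 2.79e-06). Both values are given with all libraries only, and OTC control mouse 03 was highest for both. It stood at 1105 CPM for Hnf4a (group median 616) and 99.1 CPM for Cux2 (group median 7.78). Stat5a was lower, with a log2 fold change of −0.60 ± 0.13 (adjusted p = 0.00015). Its mean was 14.4 CPM in WT control and 9.48 CPM in OTC control. The mean of the related Stat5b was 70.2 and 63.4 CPM in the same groups. Under sh-Gls2 Foxa2 fell, with a log2 fold change of −0.80 ± 0.16 (adjusted p = 8.33e-05) in WT and −0.78 ± 0.17 (adjusted p = 0.0002) in OTC, and Rxra at −0.31 ± 0.05 (adjusted p = 4.75e-06) and −0.36 ± 0.06 (adjusted p = 6.07e-07). Among 32 genes of the interleukin 6 receptor and the acute phase, 4 were higher and 14 lower in OTC control, and with sh-Gls2 5 rose and 6 fell in WT, and 11 rose and 6 fell in OTC. The counts in WT were near the shares of all genes, of which 17.6% rose and 17.2% fell. In OTC 20.2% of all genes rose and 22.6% fell with sh-Gls2, and the count of falls was near that share. Between the strains 19.9% of all genes were higher and 16.4% lower in OTC control. Orm2, an acute phase glycoprotein, was at −3.16 ± 0.42 (adjusted p = 6.65e-08) in OTC control, and under sh-Gls2 it rose, with a log2 fold change of 2.20 ± 0.34 (adjusted p = 8.18e-07) in WT and 3.54 ± 0.42 (adjusted p = 1.69e-09) in OTC. Its close relatives make that value uncertain.

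Some markers of other liver cells were also called under sh-Gls2. Of 10 macrophage markers 6 rose in WT and 7 in OTC, and their summed level lay between 110.3 and 176 CPM in WT control. It lay between 146 and 235 CPM after sh-Gls2 in WT, between 97.1 and 207 in OTC control and 172 and 292 in OTC sh-Gls2. Of 10 stellate cell markers 5 rose in WT and 7 in OTC, and their sum was 287 to 377 CPM in OTC control and 393 to 566 CPM in OTC sh-Gls2. Of 10 endothelial markers 2 rose in WT and 7 in OTC. Of 9 tested hepatocyte markers 1 fell in WT and 6 fell in OTC, none rose, and their sum was 106039.9 to 145045 CPM in OTC control and 93319 to 121013 CPM in OTC sh-Gls2. Of all genes 17.6% rose and 17.2% fell with sh-Gls2 in WT, and 20.2% rose and 22.6% fell in OTC. The endothelial rises and the hepatocyte fall in WT were near those shares. Between the strains under the control vector no macrophage marker was called, 4 hepatocyte markers were higher and 2 lower, 2 stellate cell markers were higher and 3 lower, and 1 endothelial marker was lower. Of all genes 19.9% were higher and 16.4% lower in OTC control, and the count of higher stellate cell markers was near that share. Bile duct, platelet, erythroid and lymphocyte lists held 6, 3, 6 and 7 tested genes, of which 1, 1, 0 and 0 rose under sh-Gls2 in each strain and none fell. The bile duct rises were near the shares of all genes. In OTC control 1 bile duct and 2 platelet genes were higher and 2 erythroid genes lower. The part of these markers in the values of the 41 genes was not tested.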

How the data were processed

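RNA-seq libraries were made from polyadenylated liver RNA of 55 mice with a strand-specific kit, per the labels' protocols. The authors deposited 1 table of read counts per gene and 1 of TPM. The submitters' processing notes name GRCm38 as genome build, FastQC and CASAVA 1.8.2. Which aligner and which counter made the tables is not given in the sources used here. The libraries were amplified by PCR, and no molecular identifiers are named, so counts can include duplicates.

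The deposited counts were tested with edgeR 4.0.16 in R 4.3.3 (filterByExpr with a minimum count of 10, TMM scaling, quasi-likelihood fit of all 6 groups at once, contrasts between groups). P-values were adjusted by Benjamini and Hochberg over all 13311 genes tested, and a gene was called at an adjusted p below 0.05. CPM in the text are TMM-scaled counts per library size, and a signed value with ± beside an adjusted p is a log2 fold change with its standard error. The deposited TPM values served for levels between genes and, as log2(TPM + 1) and log2(TPM + 0.1) in limma 3.58.1, as alternatives. Other alternatives were DESeq2 1.42.0 (its size factors and its Wald test), no filter, a filter of 1 CPM in 8 libraries, fits of only the groups compared, and each library left out in turn. Fits without WT control mice 13 or 07, OTC control mice 03 and 67, or the OTC control of unmatched number, and all alternatives for the direct hairpin comparisons and the strain comparisons under a hairpin, were chosen after seeing the data. The scripts were tested on simulated data.

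Up to 12 called genes with the smallest adjusted p were named per comparison, and up to 4 per list of other genes, of which 1 is not reported here. Remaining members were named to account for all 41, and Cux2, Saa1 and Hp beside single libraries after their values were seen. The members and lists were chosen with earlier results of these data known. Each mouse gave 1 library, by the mouse numbers in the labels. Promoters are from RefSeq (GRCm38.p6), matched by symbol for 32 of 41 genes.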

Additional observations from a re-analysis of the deposited data

Results flagged for a closer look

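In 246 sets of values (1 of the 41 genes in 1 group), 20 held a library far from the others of its group. Chance marks about 1 in 20 such sets. The 20 values came from 7 libraries.

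WT control mouse 07 had the highest fibrinogen levels, with Fga at 12890 CPM, Fgb at 8845 CPM and Fgg at 7235 CPM, and the highest Cpb2 of its group at 393 CPM. It had the lowest Klkb1, at 149 CPM, and the lowest Cpn1, at 194 CPM. WT control mouse 13 had the lowest C6 (54.7 CPM), C8a (332 CPM), C8b (92.2 CPM) and C1ra (207 CPM) of its group. In OTC control mouse 03 C8g was lowest at 119.9 CPM and Mbl1 lowest at 25.3 CPM, while F12 was highest at 255 CPM.

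WT sh-Gls2 mouse 45 had the lowest C2, at 83.8 CPM, and the lowest C1ra, at 208 CPM, of its group. In WT sh-Gls2 mouse 01 Cpn1 stood apart at 183 CPM, and in WT sh-Gls2 mouse 79 C4bp did at 409.6 CPM. WT sh-Glud1 mouse 56 had the lowest Plg (2155 CPM), Proc (302 CPM) and Vtn (1382 CPM) of its group.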

How the results depend on the processing

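The counts of called genes among the 41 differed between some of the alternatives run. On log2(TPM + 1) and on log2(TPM + 0.1), limma called 9 genes higher and 12 lower in OTC control than in WT control, 6 lower under sh-Gls2 in WT, 9 lower under sh-Gls2 in OTC, and 6 higher and 14 lower in OTC under sh-Gls2, on both scales alike. A fit of only the groups compared called 3 genes higher in OTC under sh-Gls2. The difference between strains in the sh-Gls2 effect gave 1 lower gene (Mbl2) without WT control mouse 13, and 1 without that mouse and OTC control mice 03 and 67. Leaving out each library in turn gave 5 higher and 18 to 23 lower genes for OTC control against WT control, 7 to 8 higher and 9 to 12 lower under sh-Gls2 in WT, 7 higher and 12 to 15 lower in OTC, 0 to 1 lower for the strain difference, and 1 to 2 higher in OTC under sh-Gls2. The cause was not tested in any of these cases. No paired analysis was possible because each mouse number occurs once, so the numbers pair no mice across groups. The lowest count of any of the 41 genes in a library was 364.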
